A study of Rattus norvegicus with 9 samples.

Results

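The heat shock proteins and chaperones described here are 76 genes with 1 probe each. They were chosen by name alone, as every probe whose symbol in the platform's annotation belonged to a heat shock protein family (Hsp followed by a family letter or number), the J-domain proteins (Dnaj), the TRiC chaperonin (Tcp1 and Cct), the BAG cochaperones (Bag), the protein disulfide isomerases (Pdia), calnexin (Canx) or calreticulin (Calr). The array files held 22517 probes, of which 10687 had a gene symbol, and these named 10412 genes. The tissue was the brain cortex of 9 rats of the outbred Sprague-Dawley stock, taken at 60 days of age and read on Illumina bead arrays with 1 array per animal. All 9 animals, 4 males and 5 females, had been irradiated in the womb with 145 cGy from a caesium source on gestation day 17, which the series uses as a model of cortical dysplasia. Unirradiated animals were not analysed here, so no value below measures an effect of radiation. The comparisons available were between the sexes and among 3 numbers in the sample titles that the labels do not explain. Male 1, male 2 and female 1 share the first title number, males 3 and 4 with females 2 and 3 the second, and females 4 and 5 the third.

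Chaperones help proteins to fold, keep unfolded chains from clumping and hand damaged ones to degradation. In the cytosol, HSP70 proteins bind short exposed stretches of a chain, J-domain proteins bring them their clients, BAG proteins release the bound nucleotide, HSP90 finishes signalling proteins, and the ring-shaped TRiC complex folds actin and tubulin. Mitochondria hold a ring chaperonin of their own, and the endoplasmic reticulum folds secreted and membrane proteins with Hspa5 (BiP), Hsp90b1, the lectins calnexin and calreticulin, and the disulfide isomerases. Neurons depend on this system because they do not divide and cannot dilute misfolded proteins. Heat or misfolding in the cytosol activates the factor HSF1, and misfolding in the endoplasmic reticulum activates the unfolded protein response.

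Levels are given as log2 intensities after background correction and quantile normalisation, and levels of different probes cannot be set against each other. A probe was taken as above background on an array when its intensity exceeded that array's bound, the 99th percentile over the 6605 probes missing from the authors' value table. Median raw intensity was 47.9 to 57.2 and the bound 46.6 to 54.1 over the arrays, and 67 to 69 of the 76 chaperone probes exceeded it on each. Of the 76, 68 exceeded the bound on at least 4 arrays and were tested among 12370 probes. All probes with names on the marker lists for glutamatergic neurons (3), interneurons (4), astrocytes (4) and oligodendrocytes (4) were above it on every array. Female 1, male 2 and female 3 stood apart from the other 6 arrays. On the first principal component of the 12302 tested probes that are not chaperones, which held 33.4% of their variance, these 3 arrays scored 19.0, 16.1 and 17.5 and the others -13.1 to -4.49. Both sexes and 2 of the 3 title numbers are represented among them, and results that rest on them are given with and without them.

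Most chaperone probes lay above the bound in cortex. Of the 76 probes, 65 were above background throughout and 5 nowhere. Every probe with a symbol was among the 15912 of the authors' value table, and the bound comes from the 6605 left out of it. No chaperone probe could thus be among those that set the bound, and this selection favours high counts. Among the 68 tested, 95.6% were above it throughout, beside 80.8% of all probes tested, a share that the filter on dim probes raises in both sets. All 9 genes of the endoplasmic reticulum and all 5 BAG genes were above the bound on every array. So were 7 of the 8 genes grouped with TRiC by symbol, both mitochondrial chaperonin genes and 29 of 35 J-domain genes. The same held for 7 of 9 HSP70 and HSP110 genes, 3 of 5 small heat shock genes, Hsp90aa1, and the cochaperones Hspbp1 and Hspbap1. The 5 that never exceeded it were Hspa1b, the main heat-inducible HSP70 of rodents, the small heat shock genes Hspb2 and Hspb9, the testis form of a cysteine string protein Dnajc5g, and Cct8l2. The last fell in the TRiC group through its symbol and is not the ring subunit Cct8. Hspa1b (ILMN_1371746) stood at 4.76, 4.70, 4.59 and 4.82 in the 4 males and 4.52, 4.70, 4.98, 4.95 and 4.73 in the 5 females. All of these values were below the bound, so they give no order between the animals. The gene ID that the platform gives it is not in the RefSeq table used here. Rats carry the near-identical copies Hspa1a and Hspa1b, and whether the probe reads both was not tested. Below the filter were also Dnajb12, Dnajc28 and Dnajc8, each above the bound on 2 arrays. The well-known family genes Hspa1a, Hsph1, Hspa8 and Hsp90ab1 and the TRiC subunit Cct8 had no named probe and were not analysed here.

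Promoter sequence was searched for the elements through which the heat shock and unfolded protein responses are known to act. RefSeq windows of 250 bases before and 50 after the start of a gene, on build GRCr8, were matched by gene ID for 64 of the 76 genes and searched on both strands. The ER stress response element, CCAAT and CCACG with 9 bases between them, was found in 22 of 33469 rat windows (0.0657%) and in 5 of the 64 (7.81%), those of Hspa5, Hsp90b1, Calr, Canx and the luminal J-domain protein Dnajc3. A shorter form, ATTGG, any base and CCACG, was found in 0.0508% of windows and in that of Dnajb11, another J-domain protein of the endoplasmic reticulum. The heat shock element binds HSF1 through repeated nGAAn units. A run of 3 units, GAANNTTC followed by NN and GAA, was in 0.798% of all windows and in 4 of the 64 (6.25%), those of Cct4, Dnaja1, Hspd1 and Hspe1. The windows of Hspd1 and Hspe1 overlap at these units, so the same stretch counts for both genes, here and among the pairs. Pairs of units overlap with these runs: GAANNTTC was in 8.59% of all windows and 14 of the 64, and TTCNNGAA in 8.77% and 11 of the 64. These are matches of letters and say nothing of whether a factor is bound in these animals.

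The 250 bases before the start are shown for Hspe1, because it had the widest SD between animals and shares this stretch with Hspd1, and for Hspb1 and Dnajb1, inducible genes of the cytosol with paired units. Capitals mark the GAA and TTC of heat shock units.
Hspe1 (chr9:64084077-64084326, plus strand): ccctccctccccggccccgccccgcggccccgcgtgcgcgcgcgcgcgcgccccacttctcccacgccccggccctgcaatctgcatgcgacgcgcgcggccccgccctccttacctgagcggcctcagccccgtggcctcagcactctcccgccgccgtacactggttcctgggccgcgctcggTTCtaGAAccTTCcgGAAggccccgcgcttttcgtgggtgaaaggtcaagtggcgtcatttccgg
Hspb1 (chr12:26432302-26432551, minus strand): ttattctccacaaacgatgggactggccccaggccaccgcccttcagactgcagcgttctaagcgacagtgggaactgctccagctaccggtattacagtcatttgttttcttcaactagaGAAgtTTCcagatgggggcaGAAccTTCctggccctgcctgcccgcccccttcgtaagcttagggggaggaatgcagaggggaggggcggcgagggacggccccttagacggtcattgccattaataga
Dnajb1 (chr19:41431142-41431391, minus strand): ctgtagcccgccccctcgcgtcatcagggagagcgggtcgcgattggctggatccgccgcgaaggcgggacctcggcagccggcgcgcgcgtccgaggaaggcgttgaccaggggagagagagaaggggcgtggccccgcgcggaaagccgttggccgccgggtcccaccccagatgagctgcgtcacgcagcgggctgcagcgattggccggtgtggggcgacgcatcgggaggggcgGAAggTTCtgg
In the Hspe1 sequence, 2 overlapping runs of 3 units begin 65 and 60 bases before the start. The next 5 sequences are those with the full ER stress response element, whose CCAAT and CCACG (or their complements CGTGG and ATTGG) are in capitals.
Hspa5 (chr3:38452766-38453015, plus strand): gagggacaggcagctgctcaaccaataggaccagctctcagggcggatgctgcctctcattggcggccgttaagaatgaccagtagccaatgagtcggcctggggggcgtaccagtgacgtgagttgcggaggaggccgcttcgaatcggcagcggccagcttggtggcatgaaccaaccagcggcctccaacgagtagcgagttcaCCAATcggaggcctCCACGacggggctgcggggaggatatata
Hsp90b1 (chr7:23012294-23012543, minus strand): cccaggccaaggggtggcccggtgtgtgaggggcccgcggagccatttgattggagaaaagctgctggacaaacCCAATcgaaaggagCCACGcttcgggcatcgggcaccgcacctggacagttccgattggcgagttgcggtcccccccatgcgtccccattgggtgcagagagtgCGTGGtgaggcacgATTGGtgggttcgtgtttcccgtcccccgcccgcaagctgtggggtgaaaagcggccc
Calr (chr19:40213117-40213366, plus strand): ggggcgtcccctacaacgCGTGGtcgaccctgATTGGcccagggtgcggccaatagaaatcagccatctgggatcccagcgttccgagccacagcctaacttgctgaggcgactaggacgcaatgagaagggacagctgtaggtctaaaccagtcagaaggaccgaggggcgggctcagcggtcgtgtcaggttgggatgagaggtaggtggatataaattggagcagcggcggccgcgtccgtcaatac
Canx (chr10:35157858-35158107, minus strand): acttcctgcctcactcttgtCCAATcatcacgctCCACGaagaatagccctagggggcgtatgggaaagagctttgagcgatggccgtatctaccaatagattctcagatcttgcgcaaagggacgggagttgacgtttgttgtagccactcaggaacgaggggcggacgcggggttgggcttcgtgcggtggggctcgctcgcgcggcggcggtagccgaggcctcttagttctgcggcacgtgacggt
Dnajc3 (chr15:102432417-102432666, plus strand): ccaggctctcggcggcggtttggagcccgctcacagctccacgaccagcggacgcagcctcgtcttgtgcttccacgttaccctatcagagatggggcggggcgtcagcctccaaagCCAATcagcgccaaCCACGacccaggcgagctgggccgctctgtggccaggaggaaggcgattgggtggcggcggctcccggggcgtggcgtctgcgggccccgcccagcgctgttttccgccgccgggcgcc
Hspa5 has 1 copy 43 bases before its start and Hsp90b1 has 2 copies, beginning 176 and 72 bases before it.

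The spread of the chaperone genes across the 9 animals was close to that of the other probes. The range over all arrays had a median of 0.46 log2 units over the 68 genes, beside 0.50 over all probes tested, and 3 of 68 genes (4.41%, beside 5.43% of all probes) spanned more than 1 log2 unit, Hspb1, Hspe1 and Dnajb14. The SD within sex had a median of 0.159 over the 68 and 0.167 over all 12370 probes, which puts the chaperone median at the 45.1st percentile of all. The narrowest was Dnajc11, a J-domain protein of mitochondrial membranes, with an SD of 0.07 and a range of 0.22. Without female 1, male 2 and female 3, the median SD was 0.113 for the chaperones and 0.133 for all probes.

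**Figure D1:**
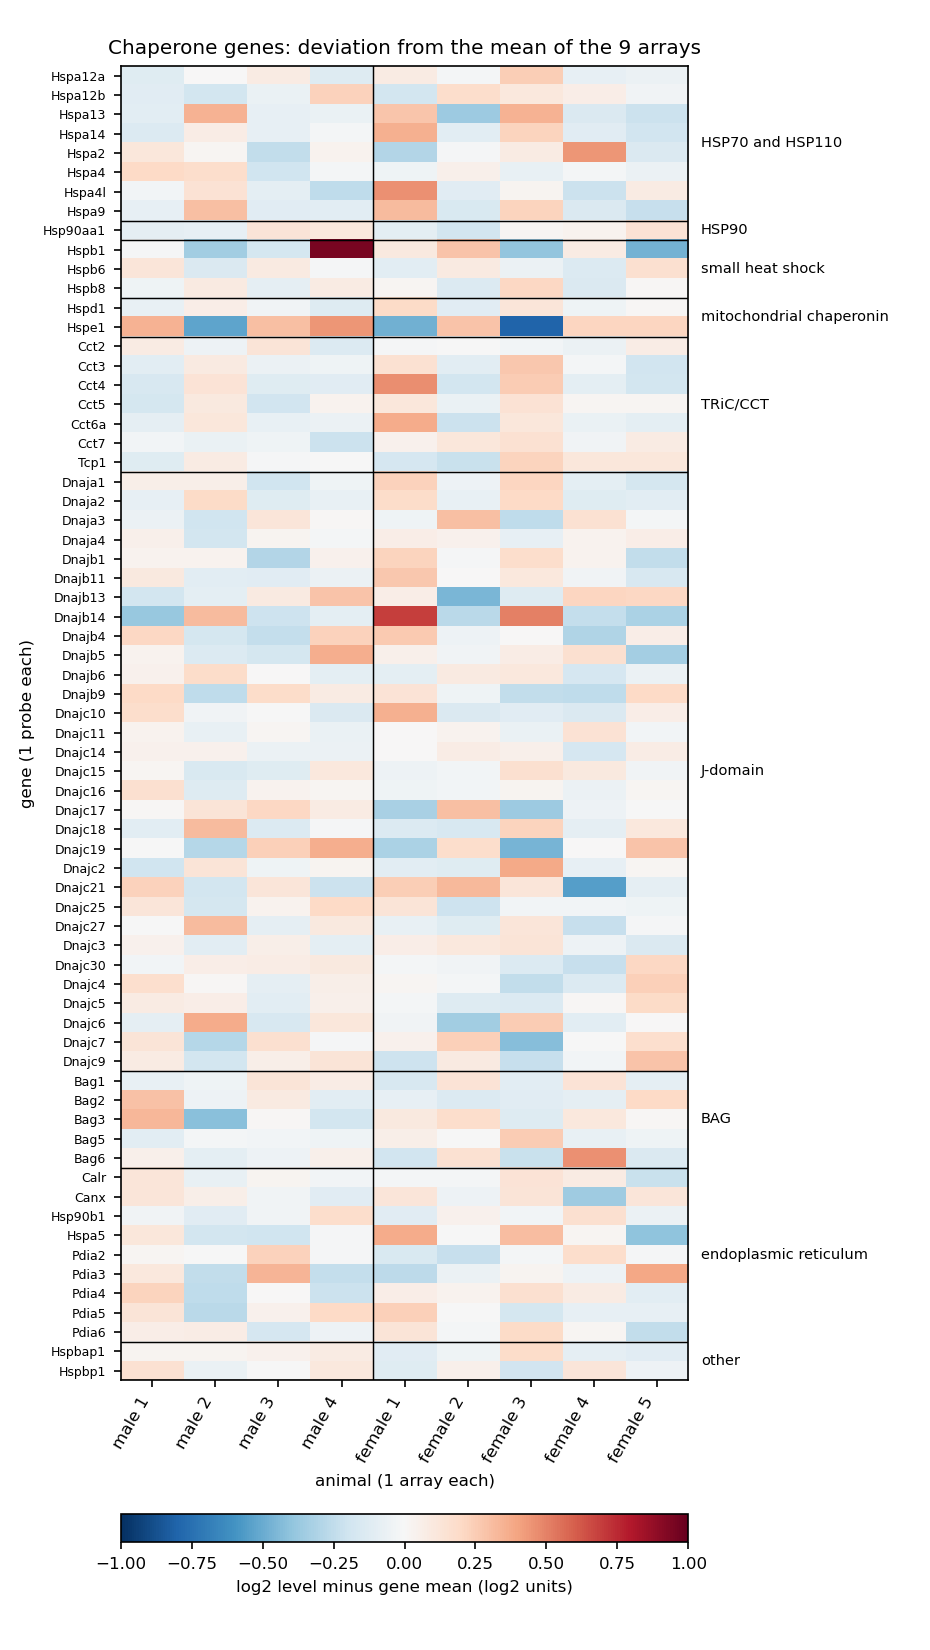
Deviation of each of the 68 tested chaperone genes (rows, grouped by role) from its mean over the 9 arrays (columns, males left of the line), in log2 units from blue (below) to red (above). Most cells are pale; Hspb1 in male 4, Hspe1 in female 1, male 2 and female 3, and Dnajb14 in the same 3 arrays stand out.

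The widest SD within sex over all arrays belonged to a partner in the mitochondrial chaperonin, while Hspb1 had the widest range. Hspe1 (ILMN_1361113) encodes the lid of the mitochondrial folding chamber, and Hspd1 (ILMN_1651010) encodes the barrel that it closes. Hspe1 read 8.87, 7.996, 8.82 and 8.96 in males 1 to 4 and 8.04, 8.80, 7.72, 8.73 and 8.74 in females 1 to 5. The low values were those of male 2, female 1 and female 3, all at or below 8.04, while the other 6 arrays lay between 8.73 and 8.96. Hspd1 read 11.17, 11.31, 11.21 and 11.11 in the males and 11.44, 11.13, 11.37, 11.20 and 11.26 in the females. Its 3 highest values came from the same 3 arrays, so the partners lay on opposite sides. The within-sex SD of Hspe1 was 0.48, first among the 68 chaperones, and 0.06 without the 3 arrays, 60th of 68. For Hspd1 the SD was 0.11 with and 0.06 without them. The genes lie head to head on chromosome 9, with starts 290 bases apart in the promoter table (at 64084327 for Hspe1 and 64084037 for Hspd1), so that the Hspe1 sequence above lies before both starts. RefSeq's full record of Hspd1 reaches 64084332, past the start of Hspe1. Because the arrays fall into 2 clusters on Hspe1, the pair was correlated over the 6 other arrays only. Pearson's r was -0.74 (exact permutation p = 0.0861, adjusted 0.258 over 6 pairs of genes, n = 6) and Spearman's rho -0.60 (exact permutation p = 0.242, adjusted 0.362), and r was -0.24 without the 2 arrays farthest from the median of Hspd1. No relation between the partners passed within that cluster.

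The same 3 arrays ordered other chaperones too. In 12 of the 68 genes all 3 lay above the other 6 arrays, beside 10.2% of all probes tested, and in 4 all 3 lay below, beside 10.7%. As shares of the chaperones these counts are 17.6% and 5.88%, and no test was made of them. The 12 were the TRiC subunits Cct3, Cct4, Cct5 and Cct6a, the J-domain genes Dnaja1, Dnaja2 and Dnajb14, the HSP70 family genes Hspa9, Hspa13 and Hspa14, Hspd1 and the disulfide isomerase Pdia6. The 4 were Hspe1, the HSP70 nucleotide exchange factor Hspbp1, the J-domain gene Dnajc19 and Dnajc9, a histone chaperone with a J domain. Dnajb14, a J-domain protein anchored in the membrane of the endoplasmic reticulum, read 6.82, 7.52, 6.99 and 7.10 in the males and 7.89, 6.93, 7.71, 6.96 and 6.88 in the females. Male 2, female 1 and female 3 were at 7.52 or above and no other array passed 7.10. Its SD was 0.42, and 0.11 without the 3 arrays. Dnajc19, part of the motor that pulls proteins into the mitochondrial matrix, read 8.02, 7.74, 8.26 and 8.38 in the males and 7.70, 8.19, 7.55, 8.02 and 8.30 in the females, with the same 3 arrays lowest. Its SD of 0.31 was 0.16 without them. Hspa9 (mortalin), the mitochondrial HSP70 at the heart of that motor, read 10.37, 10.75, 10.33 and 10.34 in the males and 10.76, 10.29, 10.67, 10.30 and 10.21 in the females. Here the same arrays were highest, so genes of 1 import machine lay on opposite sides in these libraries. The SD of Hspa9 was 0.23 with and 0.04 without them. Hspa13, an HSP70 relative of microsomes, read 8.09, 8.54, 8.12 and 8.13 and 8.47, 7.83, 8.54, 8.05 and 7.98 in the sexes in turn, with an SD of 0.28 that was 0.08 without the 3 arrays. The same 3 arrays were also the highest of the 9 on the mean of the immediate early gene list. Its mean deviations from the genes' averages were 0.48 in female 1, 0.57 in male 2 and 0.40 in female 3, beside -1.05 to 0.31 in the others. Of its tested genes, only Dusp1 had these 3 arrays highest, and Egr1 was highest in female 2, at 10.61. For Arc, Egr2, Fos and Junb, male 4 or female 2 lay above some of the 3 arrays. The astrocyte list averaged 0.11, 0.09 and 0.11 beside -0.11 to 0.08, but its genes disagreed. Gfap and Aqp4 were highest in male 3, at 11.43 and 7.69, and read 11.07 and 7.29 in male 2. Slc1a2 was highest in female 1, at 7.96, and Slc1a3 in male 2, at 12.18, with 11.42 in female 1. The part of these markers in the chaperone values was not tested.

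**Figure D2:**
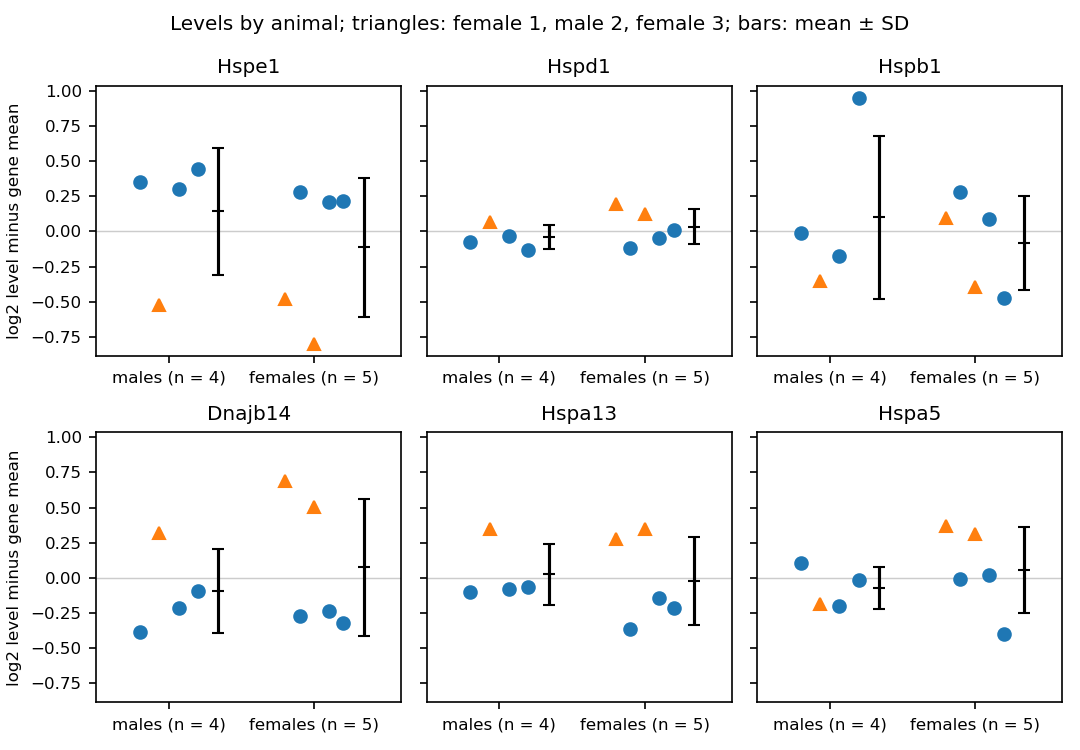
Log2 level of 6 chaperone genes minus the gene's mean over the 9 arrays, by sex, with 1 symbol per animal and bars for the mean ± SD of each sex. Triangles mark female 1, male 2 and female 3, which are lowest for Hspe1 and highest for Hspd1, Dnajb14 and Hspa13; for Hspb1 the high point is male 4.

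Among small heat shock proteins, ATP-independent holders of unfolding chains, Hspb1 varied from animal to animal in another way. Hspb1 (HSP27; ILMN_1374332), known in brain from astrocytes and vessels and induced by stress, read 6.61, 6.27, 6.45 and 7.57 in the males and 6.72, 6.91, 6.23, 6.71 and 6.15 in the females. Male 4 was highest, and male 2, female 3 and female 5 were lowest, a range of 1.42 log2 units or 2.68-fold. Its SD was 0.46, and 0.51 without the 3 arrays that stood apart, the widest of the 68. On the means of their lists, markers of vascular smooth muscle and blood were highest and lowest in the same animals as Hspb1, while those of endothelium and astrocytes were not. On the vascular smooth muscle list, 3 of 7 genes had a named probe, Tagln and Myl9 were above the bound on all 9 arrays and Cnn1 on none. Tagln, an actin-binding protein of smooth muscle, was highest in male 4 at 7.05 and lowest in female 5 at 6.16, with the other 7 arrays between 6.42 and 6.73. The mean deviation of each list from its average over the arrays was 0.28 in male 4 and -0.36 in female 5 for vascular smooth muscle, and -0.14 to 0.07 elsewhere. For blood (3 of 5 genes tested) it was 0.46 and -0.52 in these 2 animals, and for meninges and fibroblasts (7 of 7 tested) 0.34 and -0.75, with female 1 at 0.37. Within the blood list, Hbb and Hbb-b1 were highest in male 4, but Hba-a2 was highest in male 2, at 5.51, and read 5.19 in male 4. All 3 were lowest in female 5. The endothelium list (4 of 6 tested) stood at -0.06 and -0.02 in male 4 and female 5, with female 1 highest at 0.14 and female 4 lowest at -0.12, and the astrocyte list (4 of 5 tested) at -0.07 and -0.09. Their part in the Hspb1 result was not tested, and in bulk tissue more cells of a type and more RNA per cell cannot be told apart. The other measured members of the family kept close together. Hspb6 (HSP20), a small heat shock protein of muscle, ran from 9.18 to 9.48, and Hspb8, the partner of Bag3 in clearing aggregates, from 7.53 to 7.88.

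In the HSP70, HSP110 and HSP90 groups, single genes ranged over 0.33 to 0.73 log2 units. Hsp90aa1, the stress-inducible HSP90, read 10.10, 10.10, 10.32 and 10.29 in the males and 10.09, 10.003, 10.21, 10.23 and 10.33 in the females, a range of 0.33, and the sexes overlapped. Dnajb1 (HSP40), the classical inducible partner of HSP70, read 10.28, 10.28, 9.95 and 10.29 in the males and 10.46, 10.23, 10.42, 10.28 and 9.99 in the females. Male 3 and female 5 were lowest and female 1 and female 3 highest. The immediate early genes, which neurons switch on with activity (6 of 8 listed were tested), had their lowest mean deviations in the same animals, -1.05 in male 3 and -0.48 in female 5, and 0.48 and 0.40 in female 1 and female 3, with male 2 highest at 0.57. Male 1 was next lowest on that list, at -0.36, and lay below female 5 for Egr1, Egr2, Fos and Junb, while its Dnajb1 read 10.28. The part of the immediate early genes in the Dnajb1 values was not tested. Bag3, an inducible cochaperone that links HSP70 to autophagy, read 7.23, 6.49, 6.91 and 6.72 and 6.999, 7.08, 6.78, 7.01 and 6.92 in the sexes in turn, with male 1 highest and male 2 lowest. Its probe repeated the values of an unnamed probe on all 9 arrays. The highest and lowest animals of Dnajb1, Bag3 and Hspb1 were thus not the same ones. Hspa4l, an HSP110 family exchange factor, read 9.47, 9.64, 9.39 and 9.24 and 9.95, 9.39, 9.52, 9.28 and 9.58, with female 1 highest. Hspa2, an HSP70 best known from testis, ran from 6.52 to 7.25 with female 4 highest, and Hspa14, a ribosome-linked HSP70, from 8.78 to 9.32 with female 1 highest. Hspa12a, a distant relative of HSP70, was above background in every female but only 2 of the males, at levels of 5.02 to 5.39. That count rested on values near the bound, as in female 4 with an intensity of 47.6 against a bound of 47.2. The sexes overlapped, with a male minus female difference of -0.07 ± 0.10 (SE). Hspa4 and Hspa12b ranged over 0.39 and 0.42.

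Hspa5, Hsp90b1, the 2 lectins and the 5 disulfide isomerases are taken here as the endoplasmic reticulum group, apart from the J-domain proteins of that compartment, and Hspa5 had the widest range of these 9. Hspa5 (BiP, ILMN_1351240), the HSP70 of this compartment, read 11.39, 11.10, 11.08 and 11.27 in the males and 11.65, 11.27, 11.59, 11.30 and 10.88 in the females. Female 1 and female 3 were highest and female 5 lowest, 1.71-fold apart at the extremes. The choroid plexus list, a secretory tissue beside the cortex (3 of 7 genes tested), also had its highest mean deviation in female 1, at 2.59, but stood at -0.46 in female 3 and 0.91 in female 5, and its part in the Hspa5 values was not tested. Calr read 11.94, 11.74, 11.84 and 11.79 and 11.80, 11.80, 11.95, 11.89 and 11.60, and Canx 8.37, 8.31, 8.22 and 8.14 and 8.37, 8.20, 8.38, 7.89 and 8.37, in males and females in turn. Calr was lowest in female 5 and highest in female 3, while Canx was lowest in female 4 and within 8.14 to 8.38 elsewhere. Female 4 was also lowest on the oligodendrocyte list, with a mean deviation of -0.98, and on the striatum and endothelium lists, at -0.67 and -0.12. Of the oligodendrocyte genes, Mag was lowest in female 3, at 5.69, and the others tested in female 4. The part of these lists in the Canx value was not tested. Hsp90b1 (GRP94), the HSP90 of the compartment, read 10.53, 10.45, 10.53 and 10.74 and 10.45, 10.61, 10.54, 10.72 and 10.51, highest in male 4 and female 4. Pdia4, a disulfide isomerase induced with BiP, read 7.49, 7.01, 7.27 and 7.06 and 7.34, 7.31, 7.43, 7.36 and 7.16, highest in male 1 and lowest in male 2. Dnajc3, an inhibitor of the kinase PERK, stayed within 7.67 to 7.94. All of these ranges overlapped between the sexes.

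Pairs of these genes were correlated across the 9 animals, with p from all 362880 pairings and adjustment over 5 pairs. Hspa5 and Calr gave a Pearson r of 0.69 (exact permutation p = 0.0392, adjusted 0.196) and a Spearman rho of 0.62 (exact permutation p = 0.0857, adjusted 0.214), and r was 0.78 without the 2 arrays farthest from the median of Hspa5. For Hspa5 and Pdia4, r was 0.61 (exact permutation p = 0.0821, adjusted 0.205) and rho 0.75 (exact permutation p = 0.0255, adjusted 0.127), with an r of 0.67 without 2 arrays. Hspa5 and Hsp90b1 gave an r of -0.01 (exact permutation p = 0.974, adjusted 0.974) and a rho of 0.15 (exact permutation p = 0.708, adjusted 0.708), with 0.14 without 2 arrays. No pair passed after adjustment. Over the 6 arrays without the 3 that stood apart, r was 0.86 for Calr, 0.52 for Pdia4 and 0.48 for Hsp90b1, with exact permutation p adjusted over 6 pairs of 0.2, 0.388 and 0.388. Spearman's rho was 0.83, 0.83 and 0.49 (exact permutation p adjusted 0.175, 0.175 and 0.427), and r without the 2 farthest arrays was 0.89, 0.80 and -0.76. Hspa5 and Hsp90b1, each with the ER stress response element in its promoter, showed no shared pattern that these 9 arrays could resolve.

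**Figure D3:**
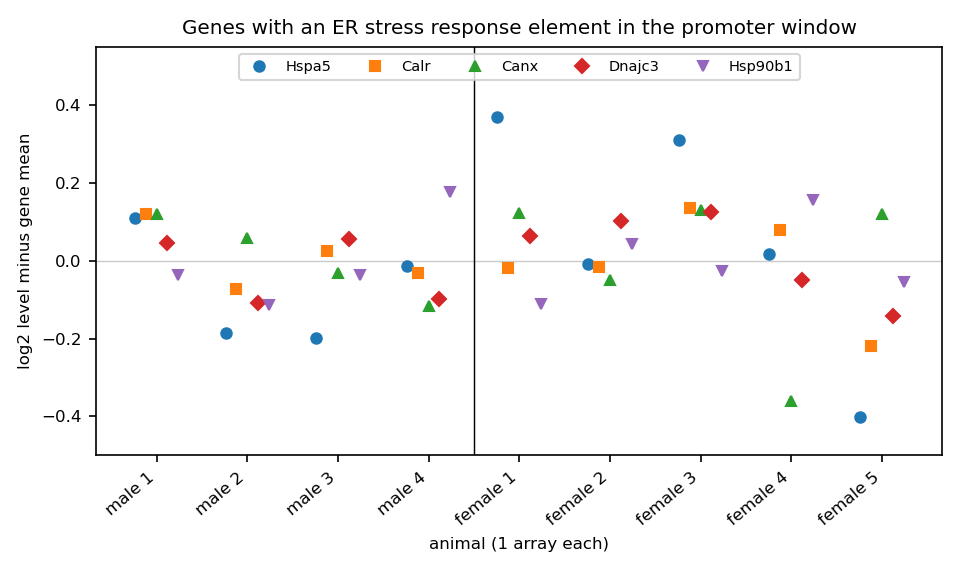
Log2 level of the 5 genes with a full ER stress response element, minus the gene's mean over the 9 arrays, for each animal (males left of the line). Hspa5 runs from female 1 and female 3 at the top to female 5 at the bottom, Canx has its lowest point in female 4, and Hsp90b1 peaks in male 4 and female 4.

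The remaining disulfide isomerases, enzymes that form and reshuffle disulfide bonds, showed other orders. Pdia3 (ERp57), which works with the lectins on glycoproteins, read 7.87, 7.51, 8.10 and 7.52 in the males and 7.50, 7.70, 7.78, 7.71 and 8.15 in the females. Female 5, lowest for Hspa5 and Calr, was highest here. Pdia6 ran from 9.83 to 10.27, highest in female 3 and lowest in female 5, and its probe repeated the values of an unnamed probe. Pdia2 and Pdia5 ran from 5.18 to 5.64 and from 5.23 to 5.73. By array, female 5 and male 2 were each the lowest of the 9 arrays for 3 of the 9 genes of the group, beside 9.94% and 11.2% of all probes, and female 3 the highest for 3, beside 13.8%. No test was made of these counts.

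Subunits of the TRiC ring are built into 1 complex in equal number, and only some of them shared an order. In Cct3, Cct4, Cct5 and Cct6a, female 1, male 2 and female 3 lay above the other 6 arrays, as in 10.2% of all probes tested. Tcp1, Cct2 and Cct7 did not have that order. Cct4 read 10.64, 10.94, 10.68 and 10.69 in the males and 11.27, 10.62, 11.06, 10.71 and 10.62 in the females, highest in female 1 and female 3. Tcp1, its partner at the same ring, read 10.26, 10.46, 10.37 and 10.38 and 10.21, 10.16, 10.61, 10.50 and 10.50, highest in female 3 and lowest in female 2, with female 1 also below average. Cct2 had the narrowest range of the 7 measured subunits at 0.26, and Cct4 the widest at 0.65. For Tcp1 and Cct2, Pearson's r over the 9 animals was -0.16 (exact permutation p = 0.676, adjusted 0.845) and rho -0.33 (exact permutation p = 0.385, adjusted 0.482). For Tcp1 and Cct5, r was 0.44 (exact permutation p = 0.234, adjusted 0.390) and rho 0.41 (exact permutation p = 0.273, adjusted 0.456). Without the 2 arrays farthest from the median of Tcp1, r was -0.17 and 0.21. Over the 6 arrays without the 3 that stood apart, r was -0.09 for Cct2 and 0.50 for Cct5 (exact permutation p adjusted 0.899 and 0.388), rho was -0.26 and 0.58 (exact permutation p adjusted 0.658 and 0.362), and r without the 2 farthest of them was -0.49 and 0.67. None of these passed.

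The J-domain proteins were the largest group, with 31 of 35 genes tested. The 4 Dnaja genes, close partners of HSP70 in cytosol and mitochondria, had ranges of 0.25 for Dnaja4 to 0.56 for Dnaja3. Dnajc21, a cofactor of ribosome assembly, read 7.77, 7.36, 7.66 and 7.33 in the males and 7.79, 7.86, 7.66, 6.99 and 7.45 in the females, lowest in female 4. Dnajc6 (auxilin), which strips clathrin from endocytosed vesicles in neurons, ran from 7.52 in female 2 to 8.24 in male 2. Dnajc5, the cysteine string protein that protects nerve terminals, stayed within 6.23 to 6.56. Dnajb9 (ERdj4), a BiP partner induced in the unfolded protein response, ran from 7.61 to 8.07, lowest in female 4, male 2 and female 3. Dnajb11 (ERdj3), which works with Hspa5, was highest in female 1 at 8.21 and lowest in female 5 at 7.77, the same extremes as Hspa5. Dnajb13, a protein of sperm flagella and motile cilia, exceeded the bound on 5 of 9 arrays. There it read 5.06 in male 3, 5.25 in male 4, 5.04 in female 1, 5.19 in female 4 and 5.18 in female 5, and the other 4 arrays were not above background and have no order. On the ependyma and motile cilia list, 4 of 6 genes were tested, and the mean deviation in these 5 arrays was 0.106, 0.23, -0.07, 0.35 and -0.06. Its part in the Dnajb13 values was not tested. The probe of Dnajc4 repeated the values of a probe for Vegfb on all 9 arrays, so its levels cannot be given to either gene. Over all 31, ranges ran from 0.22 for Dnajc11 to 1.07 for Dnajb14.

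No chaperone gene passed the test between males and females. In limma's moderated test, 0 of 68 passed an adjusted p of 0.05, with a lowest adjusted p of 1.00, and 0 of all 12370 probes passed (0%). At an unadjusted p under 0.05 there were also 0 of 68, beside 240 probes of the whole table (1.94%), 0.768% higher in males and 1.17% higher in females. None was under the unadjusted 0.001 of the series' design text, beside 0.0404% of all. In no chaperone gene did the 4 males lie wholly above or below the 5 females, beside 0.396% of all probes in each direction. The male minus female difference had a median of -0.0048 log2 units over the 68 genes and 0.0018 over all probes, and 35 of 68 were higher in females (51.5%, beside 49.1% of all). That split depended on the processing. Under median scaling 45 of 68 were higher in females (66.2%, beside 61.5% of all), with medians of -0.04 and -0.03, and without female 1, male 2 and female 3 there were 25 (36.8%, beside 50.2%), with medians of 0.03 and -0.00037. The intervals show what size of difference the arrays leave possible. In 64 of 68 genes the 95% interval lay within 0.5 log2 units of 0, and over all 68 the intervals reached from -0.65 to 0.80, the latter for Hspe1.

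The gene nearest to a sex difference was Cct7 (ILMN_1368272), a TRiC subunit. Its levels were 10.30, 10.26, 10.28 and 10.11 in the males and 10.37, 10.44, 10.48, 10.29 and 10.41 in the females. Male 4 was lowest and female 3 highest, and the sexes overlapped. Means were 10.24 ± 0.09 (SD, n = 4) and 10.40 ± 0.07 (SD, n = 5), and limma gave a difference of -0.16 ± 0.08 (SE) with an adjusted p of 1.00. Also toward females were Cct5 at -0.11 ± 0.09, Pdia4 at -0.11 ± 0.11 and Bag5 at -0.09 ± 0.09. Toward males lay Dnajc17, a nuclear J-domain protein, at 0.20 ± 0.13, Dnajc27, a Rab-like GTPase with a J domain, at 0.14 ± 0.11, Pdia2 at 0.11 ± 0.10 and Hspe1 at 0.26 ± 0.25. Taken separately in the animals of the first and of the second number, the only ones with both sexes, the differences were -0.09 and -0.26 for Cct7, -0.15 and -0.12 for Cct5, -0.09 and -0.21 for Pdia4 and -0.12 and -0.16 for Bag5. They were 0.39 and 0.18 for Dnajc17, 0.23 and -4.3e-05 for Dnajc27, 0.17 and 0.24 for Pdia2 and 0.39 and 0.63 for Hspe1. For the inducible genes the differences were 0.18 ± 0.24 for Hspb1, -0.08 ± 0.12 for Dnajb1, -0.12 ± 0.13 for Bag3 and -0.13 ± 0.15 for Hspa5. Leaving out 1 animal moved the difference by over 1.5 times in 23 of the 24 genes named by rule, Cct7 being the exception at -0.18 to -0.12. Hspe1 ran from 0.08 without female 3 to 0.48 without male 2, and Pdia2 from 0.05 without male 3 to 0.16 without female 4. Bag3 ran from -0.25 without male 1 to -0.0017 without male 2, and the Hspb1 value turned to -0.10 without male 4.

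**Figure D4:**
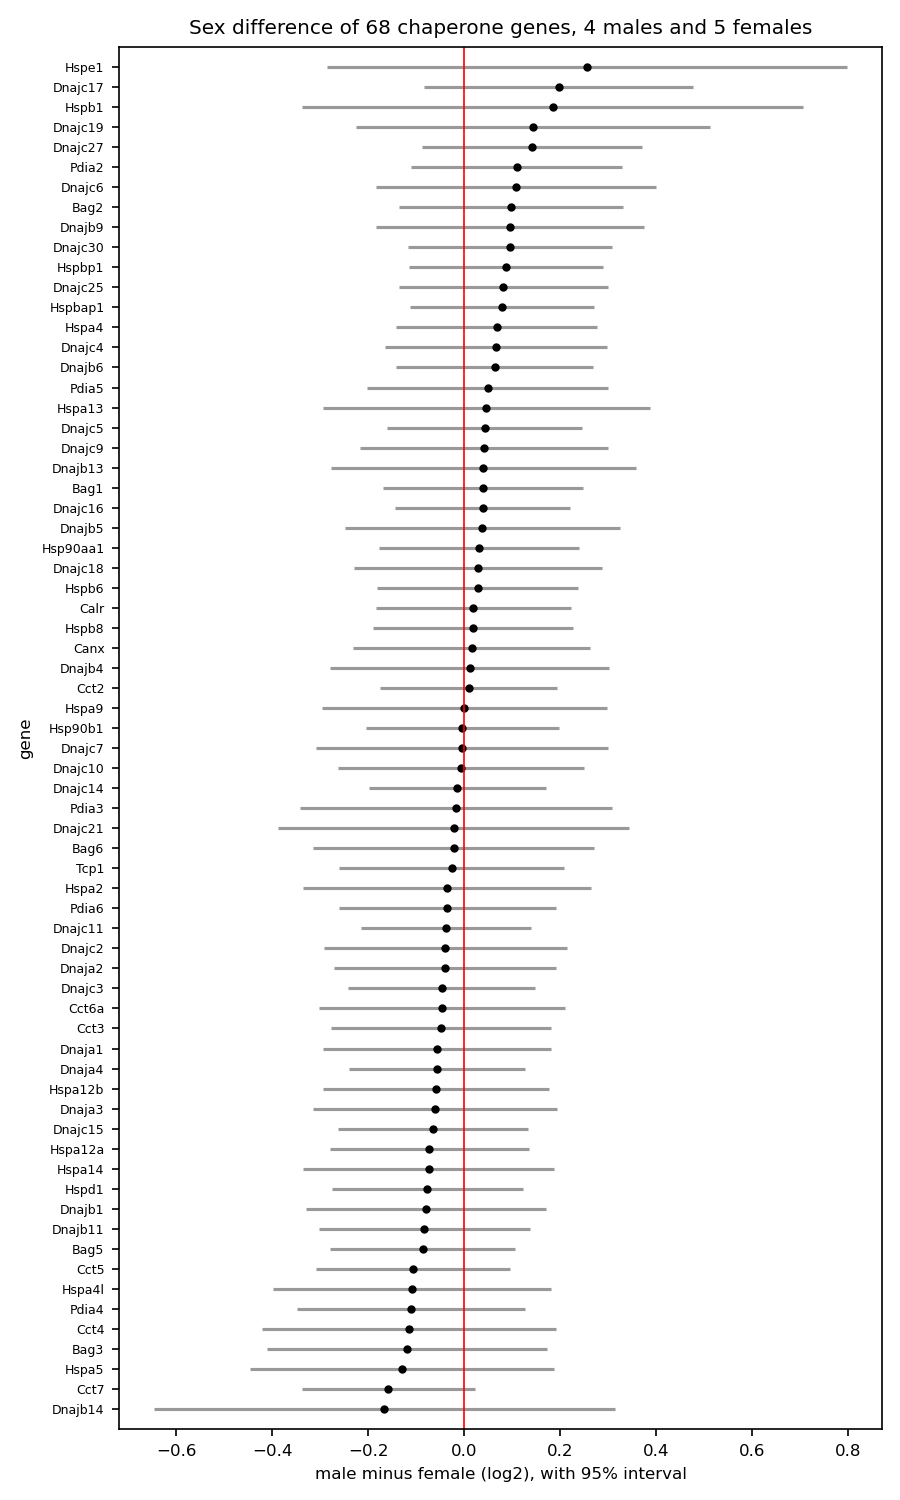
Male minus female difference (log2) of the 68 tested chaperone genes with its 95% interval, ordered by size, from 4 males and 5 females. Every interval crosses 0; the widest belong to Hspe1, Hspb1 and Dnajb14.

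For the title numbers, limma's moderated F test was used and sex was a term of the fit. No chaperone gene passed an adjusted p of 0.05 (lowest 0.532), nor did any of the 12370 probes (0%). At an unadjusted p under 0.05 stood 3 of 68 (4.41%), beside 1142 of all probes (9.23%). These counts rested on single animals, with 10 of 68 and 1656 probes without female 2, 6 and 1276 without male 1, 5 and 1283 without female 3, 1 and 352 without female 1, and 1 and 741 without male 4. Without the 3 arrays that stood apart they were 1 and 301. The 3 were Hspa4l, Dnajc21 and Hspa9, followed by Dnajb14. Against the first number, Hspa4l lay -0.34 in the second and -0.42 in the third (adjusted p 0.532 in limma), Dnajc21 -0.05 and -0.58 (0.54), Hspa9 -0.25 and -0.48 (0.54) and Dnajb14 -0.30 and -0.79 (0.543). The third number holds 2 females only, and the first holds 2 of the 3 arrays that stood apart.

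Genes of the same pathways outside the set gave no calls either. Of 21 cytosolic cochaperones and heat shock regulators listed, 14 had a tested probe, 13 of them above the bound on all arrays. Between the sexes 0 of 14 passed in limma, 0 also at an unadjusted p under 0.05, and 10 were higher in males at a median difference of 0.02. The regulator Hsf2, a relative of HSF1, ran only from 7.51 to 7.82, while Fkbp5, a cochaperone of the glucocorticoid receptor that glucocorticoids induce, ran from 8.34 in male 2 to 9.39 in male 1. Of 25 listed genes of the unfolded protein response and of folding in the endoplasmic reticulum, 19 had a named probe and 18 were tested, 16 above the bound throughout. Again 0 passed between the sexes, and 8 were higher in males and 10 in females at a median of -0.01. At an unadjusted p under 0.05 stood 1, Uggt1, the glycoprotein folding sensor, which was above background in 5 of 5 females and 0 of 4 males and passed the filter through the females. The female mean was 5.32, and the males had no signal above background, so no size of difference is given. It did not pass (adjusted p = 0.651 in limma). Because the filter selected it through the females, its p-values cannot count as support for a sex difference. Xbp1, the factor spliced in the unfolded protein response, read 10.21, 10.09, 9.92 and 10.02 in the males and 10.31, 10.15, 10.29, 9.98 and 9.96 in the females, highest in female 1 and female 3 as Hspa5 was. Ddit3 (CHOP), which links that response to cell death, read 8.73, 8.65, 8.68 and 8.95 in the males and 8.56, 8.78, 8.51, 8.64 and 8.36 in the females, highest in male 4 and lowest in female 5. The factor Atf6 was above the bound on 4 arrays and the BiP exchange factor Hyou1 on 2.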

How the data were processed

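Per the labels' protocols, the cortex was homogenised in TRIzol, RNA was purified with a Qiagen kit, and 250 ng of it was labelled for an Illumina array. The deposited file of each array holds 1 linear intensity per probe, not normalised per the values, and the authors' value table holds log2 values for 15912 of the 22517 probes. How the scanner values were made is not given in these sources. No column was left unmapped (0). Intensities were corrected with limma's normexp (offset 16) and quantile normalised (limma 3.58.1, R 4.3.3). Probes above the bound on at least 4 of 9 arrays were tested by lmFit and eBayes (two-sided), and p-values were adjusted by Benjamini-Hochberg over 12370 probes. The fits were tested on simulated data. Of the 76 genes, 75 matched RefSeq (GRCr8) by gene ID and 0 symbols changed. Named were 12 textbook members, 4 per direction nearest to a sex difference, 4 nearest to a title-number difference and the 6 widest in SD; other members were named after their values were seen. Members, lists and tests were chosen with earlier results of these data known. Nothing says that the title numbers pair animals, and replicate numbers only name them. Whether animals shared a litter is not stated in the labels. The number of arrays limits precision. Alternatives covered background, normalisation, filter, left-out arrays, block and moderation.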

Additional observations from a re-analysis of the deposited data

Results flagged for a closer look

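In 14 of 136 sets of values (68 genes in males and in females), 10.3%, the highest or lowest animal lay far from the others by Dixon's ratio of gap to range, which chance gives in about 1 of 20. Over all 12370 probes tested, 5.55% of such sets met the same rule. Male 2 gave 42.9% of the chaperone cases and 30.6% of those of all probes. Male 2 was such an animal 5 times, as the highest male for Cct4 (10.94), Cct6a (10.42), Dnaja2 (11.33), Hspa13 (8.54) and Hspa9 (10.75), and once as the lowest, for Hspe1 (7.996). Male 2 is the only male among the 3 arrays that stood apart. Male 3 was the lowest male for Dnajb1 (9.95) and Dnajc5 (6.26) and the highest for Pdia2 (5.64). Female 3 was the highest female for Dnajc2 (10.20), a ribosome-bound J-domain protein, and for Hspbap1 (6.06), and the lowest for Dnaja4 (9.17). Female 4 was the lowest female for Dnajc14 (7.41) and female 5 the highest for Bag2 (5.82), an inhibitor of the ubiquitin ligase CHIP. Hspb1 in male 4 did not reach the critical ratio.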

How the results depend on the processing

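No alternative run called a chaperone gene. For both comparisons these were no background correction, an offset of 50, median scaling, the authors' log2 values, other filters, the 95th percentile as the bound, trend and robust moderation, each animal left out in turn, and the 3 arrays left out. For the title numbers, the last bound and the 3 arrays were chosen after seeing the data. A fixed and a random block for the title number were run for the sexes. Over all probes, 1 to 3 passed among the title numbers without a filter, male 4, female 2, female 5 or the 3 arrays, and between the sexes without male 1 or male 4. At an unadjusted p under 0.05, the chaperone genes numbered 3 to 7 among the title numbers under the alternatives that kept all animals, the 7 without a filter (of 76) and with trend and robust moderation, and 0 to 2 between the sexes under all alternatives. The lowest adjusted p of the 24 named genes between the sexes was 0.847 over these alternatives. The median SD within sex over the 68 genes, 0.159 with all arrays, was 0.113 without female 1, male 2 and female 3. With the 95th percentile as the bound, 67 genes exceeded it throughout in place of 65. Of 384 recomputed sex differences, 341 kept their direction and 43 turned, in 12 of 24 genes. With the title number as a fixed block, values turned to -0.0201 for Calr, -0.0821 for Canx, 0.0515 for Hsp90b1, -0.0994 for Hspa13, -0.17 for Hspa9 and 0.0542 for Tcp1. Hspa9, at 0.000217 over all animals, stood at -0.000642 in the authors' log2 values, -0.0292 under median scaling and -0.00599 with a random block. Median scaling turned Canx to -0.0348 and Hspa13 to -0.00641. Without the 3 arrays, the difference was 0.00203 for Dnajb1, 0.0488 for Dnajb14, 0.15 for Dnajc21 and 0.10 for Hspa5. Leaving out each animal gave -0.0345 to 0.0548 for Calr, -0.073 to 0.0562 for Canx, -0.15 to 0.00365 for Dnajb1, -0.16 to 0.0565 for Dnajc21, -0.0118 to 0.0698 for Hsp90aa1, -0.0639 to 0.0359 for Hsp90b1, -0.0619 to 0.14 for Hspa13, -0.0987 to 0.0795 for Hspa9, -0.0975 to 0.34 for Hspb1 and -0.085 to 0.0261 for Tcp1. Without a change of sign it gave -0.12 to -0.0343 for Bag5, -0.16 to -0.0616 for Cct5, -0.30 to -0.0112 for Dnajb14, 0.13 to 0.29 for Dnajc17, 0.0422 to 0.26 for Dnajc19, 0.0637 to 0.20 for Dnajc27, -0.18 to -0.00603 for Hspa4l, -0.24 to -0.0519 for Hspa5, -0.11 to -0.0366 for Hspd1 and -0.21 to -0.0473 for Pdia4. The cause was not tested.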
